A study of Mus musculus with 4 samples.

Results

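The 8 genes described here encode the BCL2 family proteins best known for setting the survival of thymocytes. They were taken as a named list, Bcl2, Bcl2l1, Mcl1, Bcl2l11, Pmaip1, Bbc3, Bax and Bak1, from 21883 protein-coding genes with a position in the RefSeq gene table of mouse assembly GRCm38.p6, which is the assembly behind mm10. Their accessible regions were those within 1000 bp or 2000 bp of either annotated end of the gene, or anywhere over the gene with 20 kb added on each side. The 20 kb windows held 10 of 7645 KO regions and 14 of 15215 WT regions.

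The data are ATAC-seq lists of accessible regions, where a transposase has inserted adapters into open chromatin. Each library was made from 50000 DP thymocytes (CD4+CD8+, the stage at which T cell precursors are selected) of C57BL/6 mice. KO (Chaf1b-deficient) mice carried Cd4-cre with 2 floxed alleles (Cd4-cre;CHAF1bfloxp/floxp), so that Cre driven by Cd4 sequences deletes Chaf1b, a subunit of the histone chaperone CAF-1, in cells of the T lineage. WT mice carried the same floxed alleles and no Cre (CHAF1bfloxp/floxp), so neither group had unmodified alleles and Cre was present in KO alone. Each group had 2 replicates, which the authors pooled into 1 list of regions, and the sources used here give neither the age of the mice nor the extent of deletion, which region lists do not measure. No value below therefore has a replicate error, no test between the groups could be made, and intervals cover counting error only.

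BCL2 family proteins decide whether the outer mitochondrial membrane stays intact. The anti-apoptotic members BCL2, BCL-XL (from Bcl2l1) and MCL1 bind and restrain the others. The BH3-only members BIM (from Bcl2l11), NOXA (from Pmaip1) and PUMA (from Bbc3) carry death signals, and the effectors BAX and BAK (from Bak1) form the pores through which cytochrome c escapes. DP thymocytes are known to depend on BCL-XL and MCL1, to hold little BCL2, and to die by BIM in negative selection.

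The KO list was the shallower of the pair. Its genome background, the lowest number of reads that the peak caller assumed at any position, was 1.03 against 1.37 in WT, a relative depth of 0.752. As a check of the sort, 1 of 13 DP thymocyte markers had a region within 1000 bp of a gene end in KO (Cd8b1) and 7 in WT, and over the gene with 20 kb on each side 7 had one in KO and 13 in WT. Over all protein-coding genes the shares were 21.1% in KO and 34.6% in WT at gene ends, and 39.9% in KO and 58.1% in WT in the wider window, so the KO count at gene ends lay below the share of all genes. Cd4 and Cd8a had none at a gene end in either list. Among B cell markers 0 of 5 had a gene-end region in KO and 1 in WT (Ebf1), and the 5 myeloid, 4 erythroid and 6 stromal or epithelial markers had 0 in either list. In the wider window the counts were 3 in KO and 4 in WT for B cell, 2 in each list for myeloid, 2 in KO and 3 in WT for erythroid, and 0 in each for stromal or epithelial markers, and their part in the results was not tested.

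The sequences around the transcription starts of Bcl2, Bcl2l11 and Bbc3 are shown because a called region lay over each of them in at least 1 list. Each is 300 bases of RefSeq sequence (GRCm38.p6), from 250 bases before an annotated start to 50 after it, written along the gene, and capitals mark the bases inside a KO region.
Bcl2 start, chr1:106714241-106714540, minus strand: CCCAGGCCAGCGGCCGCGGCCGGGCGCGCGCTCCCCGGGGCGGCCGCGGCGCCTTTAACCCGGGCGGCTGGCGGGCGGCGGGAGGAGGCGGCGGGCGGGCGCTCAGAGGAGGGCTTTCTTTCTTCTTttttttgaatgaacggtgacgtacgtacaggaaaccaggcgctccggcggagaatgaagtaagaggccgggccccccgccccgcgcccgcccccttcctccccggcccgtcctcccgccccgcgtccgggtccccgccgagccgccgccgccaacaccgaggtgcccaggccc
Bcl2l11 first start, chr2:128125788-128126087, plus strand: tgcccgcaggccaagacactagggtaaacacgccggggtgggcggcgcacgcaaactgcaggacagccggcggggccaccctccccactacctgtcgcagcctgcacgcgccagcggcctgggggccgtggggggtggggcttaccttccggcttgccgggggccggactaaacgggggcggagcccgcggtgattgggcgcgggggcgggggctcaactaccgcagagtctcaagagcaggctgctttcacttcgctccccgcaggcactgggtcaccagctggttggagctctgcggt
Bcl2l11 second start, chr2:128127325-128127624, plus strand: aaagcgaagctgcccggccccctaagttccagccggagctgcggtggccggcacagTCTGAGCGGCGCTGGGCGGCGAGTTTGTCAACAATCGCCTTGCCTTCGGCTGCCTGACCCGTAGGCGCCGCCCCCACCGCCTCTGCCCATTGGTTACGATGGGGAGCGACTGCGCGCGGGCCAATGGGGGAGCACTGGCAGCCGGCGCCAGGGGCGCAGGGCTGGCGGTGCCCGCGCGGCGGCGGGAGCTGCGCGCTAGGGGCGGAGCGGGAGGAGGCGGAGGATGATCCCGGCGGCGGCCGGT
Bbc3 middle start, chr7:16310011-16310310, plus strand: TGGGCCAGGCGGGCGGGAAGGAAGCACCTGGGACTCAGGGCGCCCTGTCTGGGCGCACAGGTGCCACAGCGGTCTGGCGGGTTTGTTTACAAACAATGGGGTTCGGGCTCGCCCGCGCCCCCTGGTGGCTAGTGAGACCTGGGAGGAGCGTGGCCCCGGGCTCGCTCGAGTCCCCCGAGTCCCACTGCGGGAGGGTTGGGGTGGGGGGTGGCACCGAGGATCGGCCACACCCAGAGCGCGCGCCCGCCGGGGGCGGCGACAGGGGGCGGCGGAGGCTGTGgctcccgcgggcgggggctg

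At the Bcl2 start, 127 of the 300 bases lay in the KO region and 300 in the WT region. At the first Bcl2l11 start 0 bases were in a KO region and 300 in a WT region, and at the second start 244 were in a KO region and 0 in a WT region. At the middle Bbc3 start the counts were 280 in KO and 300 in WT. The window of the third Bbc3 start overlaps that of the middle start and is not printed, and it held 110 bases in KO and 254 in WT.

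Of the 8 genes, 1 had a KO region within 1000 bp of an annotated gene end and 3 had a WT region there. Over all protein-coding genes the shares were 21.1% in KO and 34.6% in WT, and 59.4% of genes with a WT region at an end also had a KO region. Bcl2 was called in both lists, and Bcl2l11 and Pmaip1 in WT only. With the window at 2000 bp, 4 genes had a KO region and 5 a WT region (22.9% and 37.5% of all genes, with 59.6% of the WT genes also called in KO), as Bcl2l11 then also had a KO region and Bbc3 and Bax were called in both lists. Annotated gene ends missed internal starts, however, and within 1000 bp of any RefSeq start in the promoter table Bcl2, Bcl2l1, Bcl2l11 and Bbc3 had a region in both lists, 4 of the 7 genes in that table (22.7% of all such genes in KO and 36.8% in WT, with 59.8% of those in WT also called in KO). Pmaip1 is not among those 7.

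**Figure D1:**
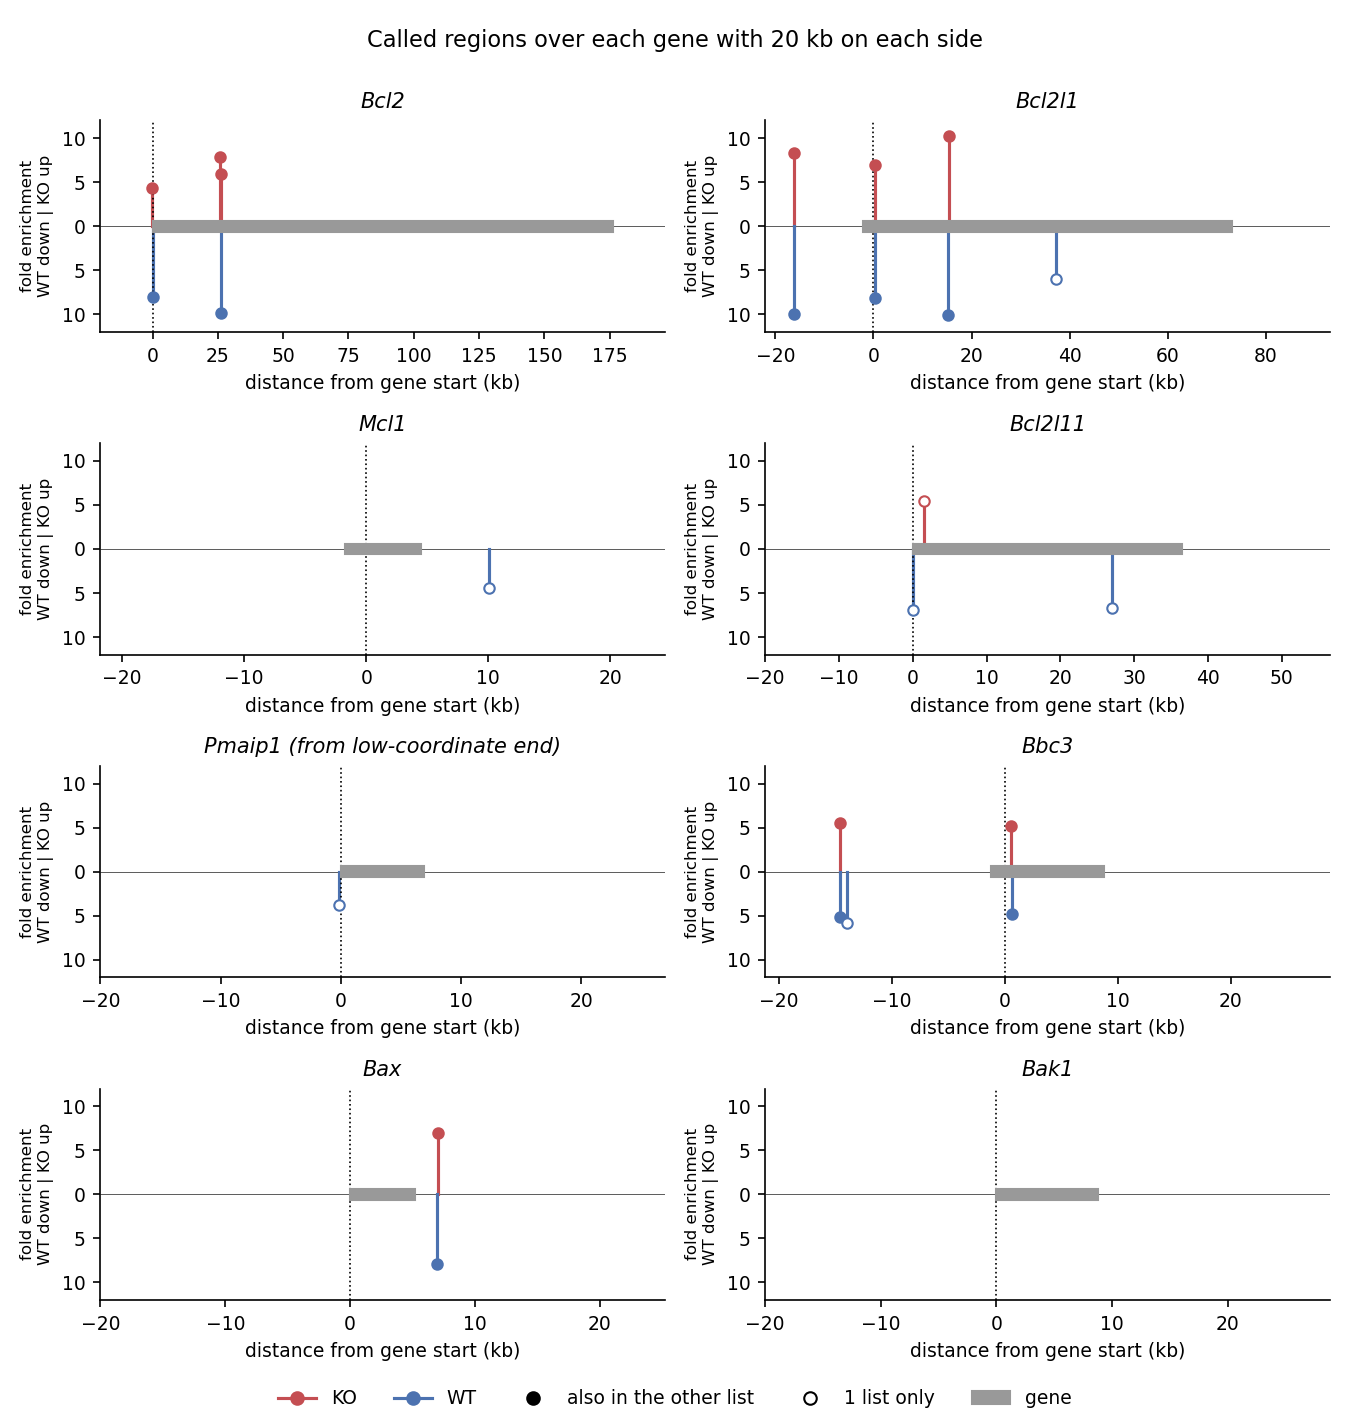
Called regions over each of the 8 genes with 20 kb on each side, by distance from a RefSeq start in kb (for Pmaip1 from its low-coordinate end), with the authors' fold enrichment of KO regions upward and of WT regions downward. Filled points overlap a region of the other list and open points do not. Bcl2 and Bcl2l1 hold the strongest regions, with folds up to 10.2 in KO and 10.0 in WT, and Bak1 has no region in either list.

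Bcl2, which encodes the founding anti-apoptotic protein (chromosome 1, 106538176 to 106714290), differed in extent at its start, with a KO to WT ratio of widths of 0.343, the lowest of the 9 pairs inside the 20 kb windows. The KO region there ran from 106714414 to 106714629 and was 216 bp wide, against 106713911 to 106714540 and 630 bp in WT. The KO region stopped 124 bp short of the start site and the WT region covered it. Its fold enrichment, which the authors deposited and which equals summit reads plus 1 over the peak caller's background plus 1, was 4.30 in KO and 8.0 in WT. At the summit lay 10 reads in KO (Poisson 95% interval 4.80 to 18.4) and 31 in WT (21.1 to 44.0), where WT reads scaled to KO depth would be 23.3. The summits themselves were 34 bp apart, 155 bp before the start in KO and 121 bp in WT.

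After scaling for depth the KO to WT ratio of summit reads at the Bcl2 start was 0.429 (0.188 to 0.898). Over 6872 shared regions that each match 1 region of the other list, the median ratio was 0.871, which lies inside that interval. Of these regions 25 had a lower ratio than the Bcl2 start, which was itself singled out as the lowest of the 9 pairs. Among 1950 regions with a summed count of 36 to 46 reads, near the 41 reads of the Bcl2 start, 10 had a lower ratio. Both sets hold only regions called in both lists. WT regions with too few KO reads to be called are therefore missing from the low end, and these ranks overstate how rare the ratio is. Of 207 WT regions with 31 reads, the WT count at the Bcl2 start, 190 had a KO region (91.8%). Reads within 10 kb around a summit set the local background and include those of the region itself. At the Bcl2 start they numbered 78 in KO and 150 in WT, a depth-scaled ratio of 0.691. Over 5967 shared regions the median of that ratio was 0.91 and the central 95% ran from 0.650 to 1.27, so the value at Bcl2 was low but inside that range. The ratio was 0.720 at the Bbc3 starts and 0.727 at the internal Bcl2l1 region, and scaling rests on the genome background alone.

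A second accessible site in Bcl2 lay inside the gene, 25.8 kb downstream of the start. In KO it was called as 2 regions, 106687837 to 106688076 with 13 summit reads and 106688190 to 106688477 with 17. In WT it was 1 region, 106687877 to 106688503, with 27 summit reads and a fold of 9.86, the stronger of the Bcl2 regions in WT. The KO folds were 5.98 and 7.89, and the depth-scaled ratios of 0.640 (0.303 to 1.28) and 0.837 (0.428 to 1.59) both had intervals that include 1. The reads within 10 kb were 67 and 64 in KO against 92 in WT, depth-scaled ratios of 0.968 and 0.925. The difference in ratio between this internal site and the start was not tested.

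Just outside the 20 kb window, 22.3 kb beyond the low-coordinate end of Bcl2, which is its 3′ end, a further region was called in both lists. It spanned 106515620 to 106515893 in KO with 21 summit reads and 106515582 to 106515874 in WT with 30, a depth-scaled ratio of 0.931 (0.506 to 1.68). A weaker WT region at 26.3 kb, with 14 reads, had no KO region.

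Bcl2l1, which encodes BCL-XL (chromosome 2, 152758732 to 152833803), had 3 regions in KO, as many as Bcl2, and 4 in WT, the most of the genes described here. All 3 of its KO regions overlapped a WT region. Near the starts the region ran from 152831154 to 152831522 in KO and 152831129 to 152831549 in WT, in the stretch between the RefSeq starts at 152831728 and 152830717. It was 206 bp from the nearer start in KO and 179 bp in WT. Its summit held 21 reads in KO and 33 in WT, its fold was 6.92 in KO and 8.13 in WT, and the depth-scaled ratio of 0.846 (0.465 to 1.51) lay close to the median of all shared regions.

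The strongest region of all 8 genes in either list was an internal Bcl2l1 region. It lay at 152816263 to 152816602 in KO with a fold of 10.2 and 27 reads, and at 152816285 to 152816703 in WT with a fold of 10.0 and 41 reads, at percentile 90.6 of all folds in the KO list and 87.0 in the WT list. Its depth-scaled ratio was 0.875 (0.518 to 1.46). A WT region at 152794334 to 152794882, fold 6.04 with 17 reads, had no KO region. Of 1100 WT regions with 15 to 19 reads and a like local background, 34.0% had a KO region, so that a missing counterpart was the more common outcome at this size. The remaining Bcl2l1 region, 13.9 kb beyond the gene, lay at an end of its neighbour Tpx2, a spindle assembly gene, with 16 reads in KO and 26 in WT.

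Mcl1, which encodes the short-lived protein MCL1 (chromosome 3, 95656944 to 95663179), had no region at an end or a start in either list. From its RefSeq start at 95658721 the nearest region was 33.3 kb away in KO and 9.93 kb away in WT. The WT region, 95668655 to 95668854, was at the minimum width of 200 bp with 11 reads and a fold of 4.41, and lay 5476 bp beyond the gene. Of 860 WT regions with 9 to 13 reads and a like background, 14.2% had a KO region. Of all protein-coding genes, 39.9% had a KO region and 58.1% a WT region somewhere in the gene with 20 kb on each side. Where a list holds no region, the caller reported none, and the site may still have been open.

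**Figure D2:**
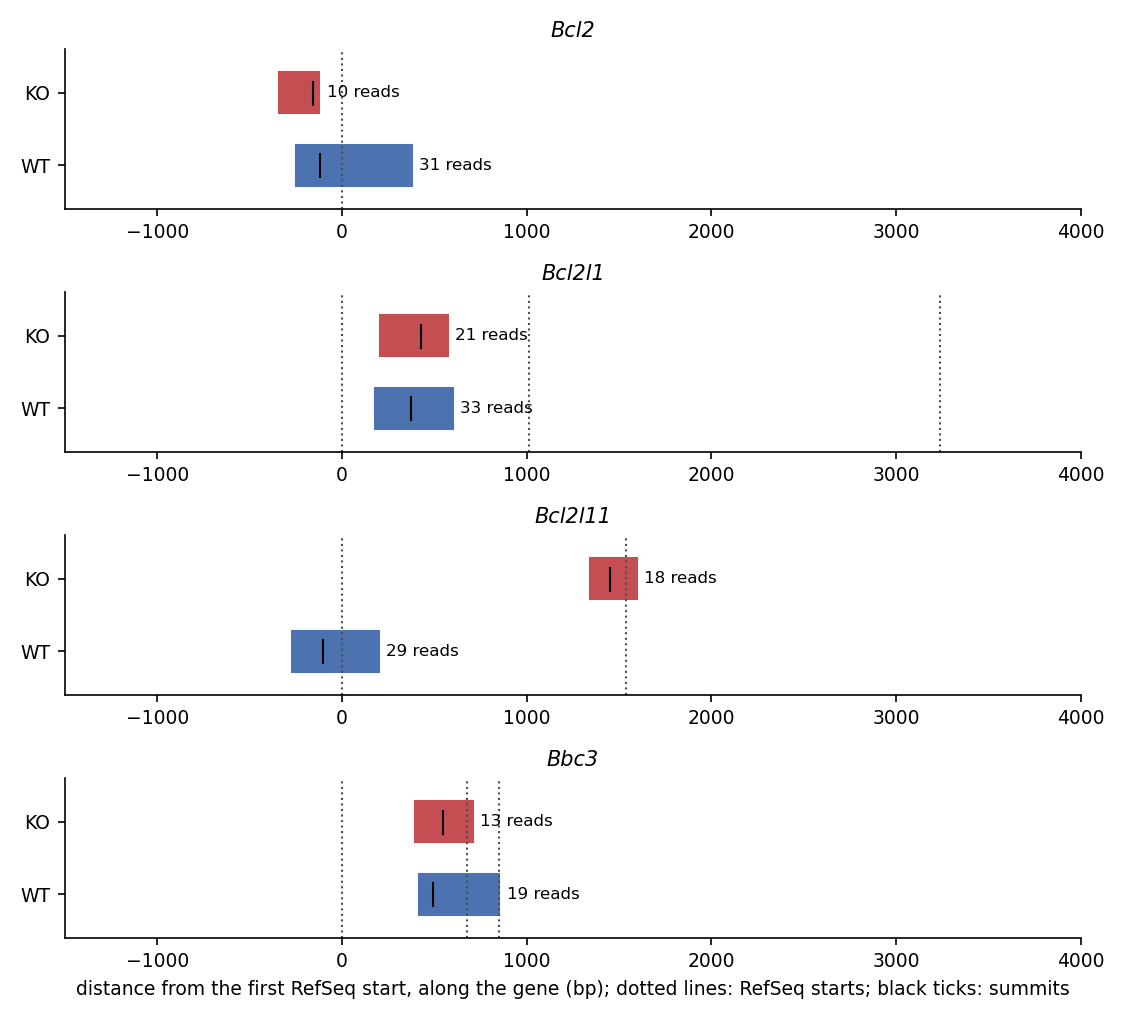
Extent of called regions (bars) and their summits (black ticks) around the RefSeq starts (dotted lines) of Bcl2, Bcl2l1, Bcl2l11 and Bbc3, by distance along the gene in bp, with KO above WT and the summit reads beside each bar. At Bcl2l11 the KO bar with 18 reads and the WT bar with 29 reads stand at different starts, and at Bcl2 the KO bar stops short of the start that the WT bar covers.

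Bcl2l11, which encodes BIM (chromosome 2, 128126038 to 128162547), was the only one of the 8 genes whose regions did not overlap between the lists although both had one near a start. The KO region ran from 128127381 to 128127633 over the second RefSeq start, with a fold of 5.46 and 18 reads (10.7 to 28.4). The WT region ran from 128125767 to 128126237 over the first start, with a fold of 6.98 and 29 reads (19.4 to 41.6). The summits lay 87 bp before the second start in KO and 104 bp before the first in WT, and 1143 bp separated the regions. The KO region had no WT counterpart, whereas 92.6% of all KO regions had one.

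At the first Bcl2l11 start, 21.8 KO reads would match the 29 WT reads at equal depth, and the lowest count called in KO at a like background was 12. Of 113 WT regions with 27 to 31 reads and a like background, 93 had a KO region (82.3%, 74.0 to 88.8), and this was one of the remainder. At the second start, the 18 KO reads correspond to 23.9 at WT depth, and the lowest count called in WT at a like background was 12. The reads in 10 kb around the summits, in windows that share 8.45 kb, were 124 in KO and 165 in WT, a depth-scaled ratio of 0.999 (0.785 to 1.27), beside the median of 0.91 over shared regions. The first start also lies within 1000 bp of an annotated end of the neighbouring gene Acoxl, so the WT region there cannot be assigned to Bcl2l11 alone.

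A second WT region of Bcl2l11, inside the gene at 128152774 to 128153261, had a fold of 6.74 and 23 reads and no KO region. It lay 25199 bp from the nearest start. Of 413 WT regions with 21 to 25 reads and a like background, 60.5% had a KO region.

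Pmaip1, which encodes NOXA (chromosome 18, 66458604 to 66465558), had a region in WT only. It ran from 66458379 to 66458606, covered the low-coordinate end of the gene, and had a fold of 3.79 with 8 reads (3.45 to 15.8), near the bottom of the WT list at percentile 1.98. At KO depth the 8 reads correspond to 6.02, below the 7 reads of the weakest region called in KO at a like background. Of 728 WT regions with 6 to 10 reads and a like background, 5.91% had a KO region. The nearest KO region was 456 kb away.

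Bbc3, which encodes PUMA (chromosome 7, 16308398 to 16318334), had a region over its starts in both lists. It ran from 16309978 to 16310290 in KO and from 16309998 to 16310434 in WT, covering the start at 16310261 in both lists and the start at 16310431 in WT alone. The fold was 5.19 in KO and 4.83 in WT, and the summit held 13 reads in KO and 19 in WT, a depth-scaled ratio of 0.91 (0.413 to 1.94). In the WT list this region stood in a decile of fold of which 15.3% had a KO region.

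A pair of regions lay before Bbc3, the first 14455 bp from the nearest start in KO and 14490 bp in WT, the second 13811 bp from it. The first was called in both lists, at 16294929 to 16295128 in KO with 14 reads and 16294893 to 16295093 in WT with 17, and its fold was 5.56 in KO and 5.14 in WT. Its depth-scaled ratio of 1.09 (0.500 to 2.36) was the highest of the pairs in these windows. The second, at 16295498 to 16295772 with 20 reads, was called in WT only, although its WT fold of 5.87 was above that of its neighbour. Of 438 WT regions with 18 to 22 reads and a like background, 42.0% had a KO region.

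The effectors had little of their own. Bax (chromosome 7, 45461695 to 45466903) had no region at its start, the nearest being 6.82 kb away in KO and 6.84 kb away in WT. That region, 45459720 to 45460078 in KO and 45459804 to 45460056 in WT, lay 1617 bp beyond the 3′ end of Bax in KO and 1639 bp in WT, within 1000 bp of an end of Ftl1, which encodes the ferritin light chain. It had 17 reads in KO and 22 in WT, a depth-scaled ratio of 1.03 (0.512 to 2.03), and at 359 bp in KO against 253 bp in WT it was the only one of the 9 pairs with the wider interval in KO. The call for Bax in the 2000 bp window rests on this region of a neighbour. Bak1 (chromosome 17, 27019812 to 27028627) had no region in its window in either list, and the nearest lay 28.6 kb from its start in KO and 28.5 kb in WT, at an end of Itpr3, with 15 reads in KO and 19 in WT.

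**Figure D3:**
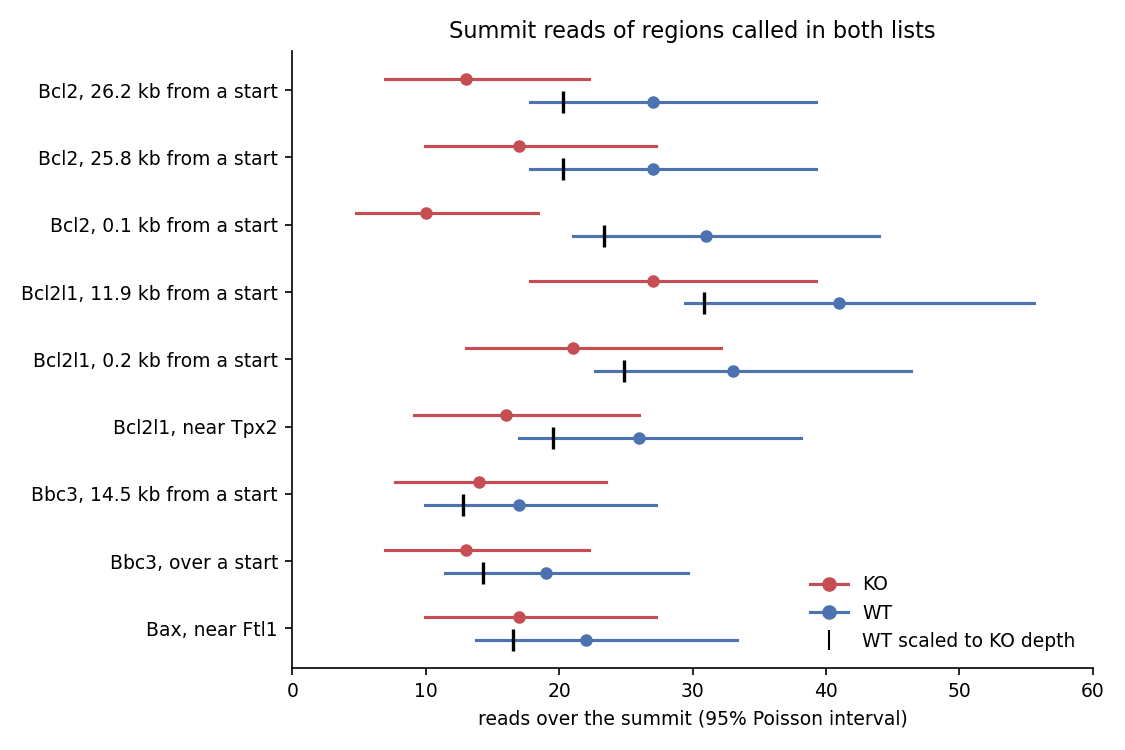
Reads over the summit, with Poisson 95% intervals, for the 9 pairs of overlapping regions of Bcl2, Bcl2l1, Bbc3 and Bax, with KO above WT, and black ticks for the WT reads scaled to KO depth. The Bcl2 start, with 10 KO reads against 31 in WT, is the only pair whose scaled WT value of 23.3 lies above the KO interval. The ticks are drawn without the counting error of the WT reads.

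By role, the anti-apoptotic genes had 6 KO and 7 WT regions, and the BH3-only genes 3 KO and 6 WT regions. Of the anti-apoptotic WT regions, 5 of 7 had a KO region (71.4%, Clopper-Pearson interval 29.0 to 96.3), against 2 of 6 at BH3-only genes (33.3%, 4.33 to 77.7) and 1 of 1 at the effectors. The median WT fold was 8.13 at the anti-apoptotic genes and 5.50 at the BH3-only genes. In the deciles of WT fold to which these regions belong, the average share with a KO region was 63.4% for the anti-apoptotic and 26.8% for the BH3-only genes. The highest WT folds were at Bcl2 and Bcl2l1, among them the region at an end of Tpx2 (9.93). The Mcl1 region, with a fold of 4.41, and the Bcl2l1 region of 6.04 lay below the WT regions of Bcl2l11 (6.98 and 6.74). The higher median is thus that of these loci and not of each anti-apoptotic gene. The intervals of both shares include the decile averages, but with 7 and 6 regions they are wide and would include many other values.

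Over all 8 genes, 8 of the 14 WT regions were also called in KO (57.1%, 28.9 to 82.3), beside the 46.2% of all WT regions and the 47.3% of their deciles. Of the 10 KO regions, 9 had a WT region (90.0%, 55.5 to 99.7), beside the 92.6% of all KO regions. The WT regions ran from 8 to 41 reads and the KO regions from 10 to 27. In the 9 pairs, the 9 KO regions summed to 148 summit reads and the 8 WT regions to 216, so that KO held 40.7% (35.6 to 45.9). The WT region of the split Bcl2 site was counted once there, against 2 KO regions. Depth alone would give 42.9%, and the 6872 shared regions gave 40.3%. The KO fold was the lower in 6 of 9 pairs, as in 74.5% of the 6872 regions, and the KO interval was the narrower in 8 of 9, as in 82.1%. The 9 pairs include the split Bcl2 site as 2 pairs, and in the 7 pairs with a single counterpart the KO fold was the lower in 4, the KO interval the narrower in 6, and KO held 38.4% of the reads (33.0 to 44.1). The intervals of the 3 shares include the values over all regions, and those that rest on 14 and 10 regions are wide.

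**Figure D4:**
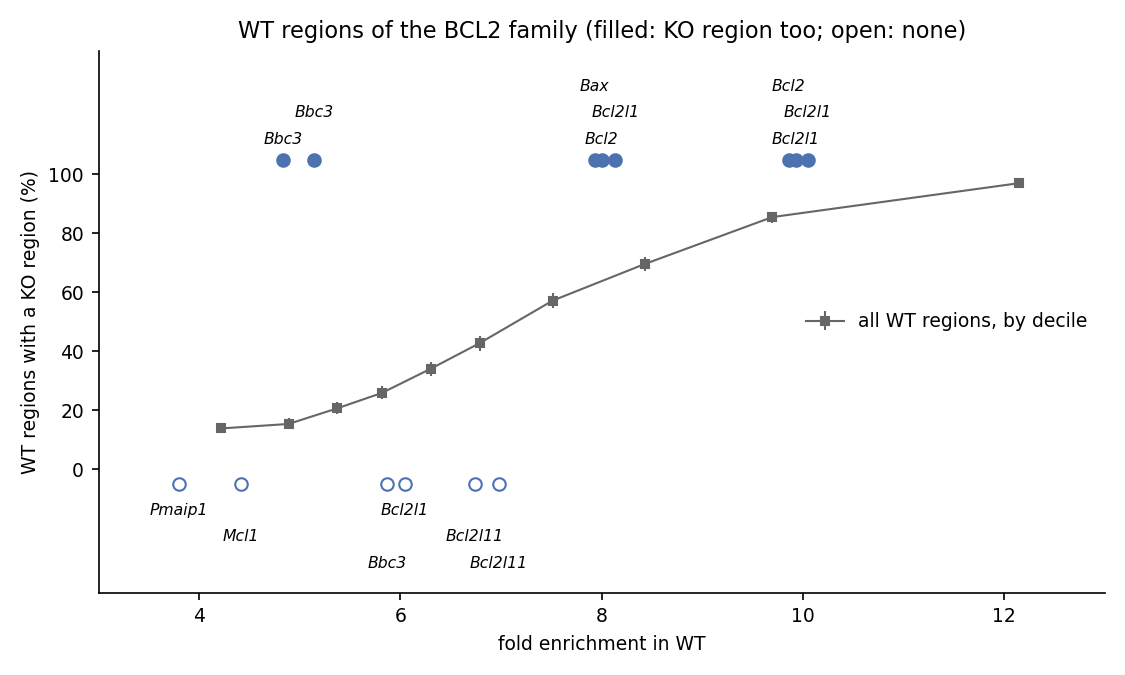
Share of WT regions that overlap a KO region, in deciles of WT fold enrichment (squares at the decile medians, Clopper-Pearson 95% intervals), with the 14 WT regions of the 8 genes marked at their fold, filled with a KO region and open without. The share is 13.8% in the lowest decile and 85.5% in the ninth, and all 6 BCL2 family regions above a fold of 7 have a KO region.

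**Figure D5:**
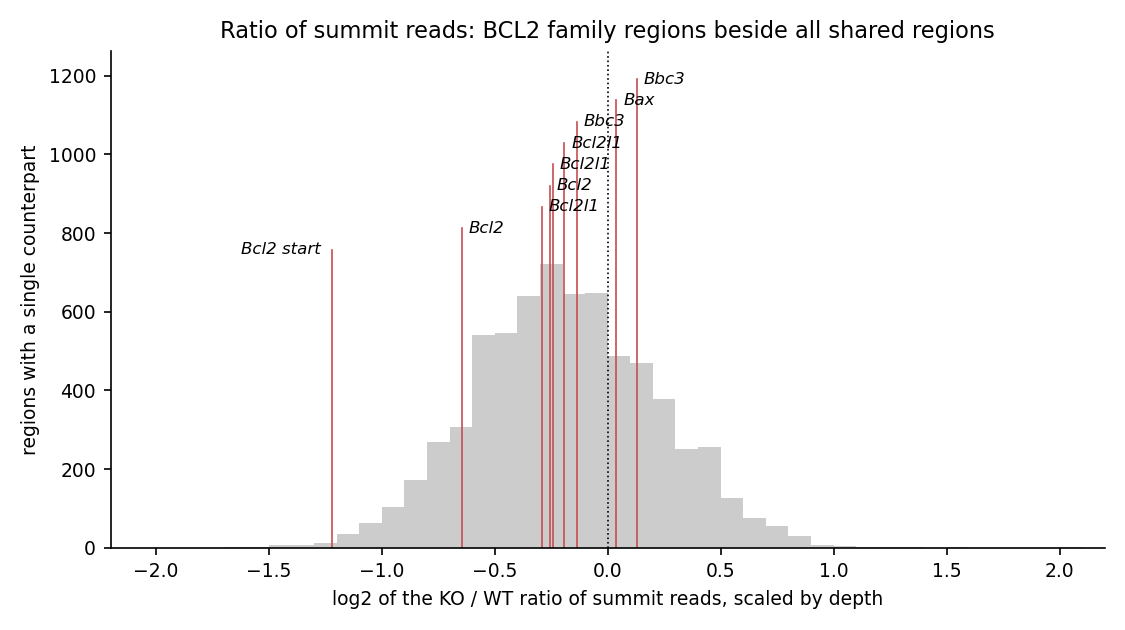
Histogram of the log2 of the depth-scaled KO to WT ratio of summit reads for 6872 shared regions that each match 1 region of the other list, with red lines at the 9 BCL2 family pairs (3 at Bcl2, 3 at Bcl2l1, 2 at Bbc3, 1 at Bax). The Bcl2 start stands in the lower tail, and the other 8 pairs lie between ratios of 0.640 and 1.09.

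The promoter windows of these genes were mostly rich in G and C. GC content was 76.0% in the Bcl2 window, 71.0% and 74.0% in the first and second Bcl2l11 windows, and 74.7% in the middle Bbc3 window, against a median of 56.3% over 21262 promoter windows of protein-coding genes. CpG dinucleotides numbered 44, 27, 38 and 30 in the same order, against a median of 13. The Mcl1 window, with no region in either list, had 65.7% GC and 33 CpG dinucleotides, and the Bak1 window 58.3% and 11. The 3 Bcl2l1 windows, with 49.3% to 55.7% GC, lay below the median GC content.

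The GC box letters GGGCGG, searched on both strands with overlapping matches counted, occurred 7 times in the Bcl2 window, 3 times in each Bcl2l11 window and 4 times in the middle Bbc3 window. They were present in 8 of the 12 windows of the 7 genes with a promoter sequence, and in 46.2% of all windows. CCAAT was present in 3 of the 12 (38.2% of all windows), among them both Bcl2l11 windows, and the ETS letters CCGGAAG in 3 of the 12 (11.6%), in Bcl2l1, Mcl1 and the first Bcl2l11 window. CAGCTG, an E-box, was found in 1 window, the first of Bcl2l11 (15.6%), TGTGGTT, a RUNX motif, in 1, that of Bak1 (4.71%), and CTTTGA, a TCF motif, in 1, that of Bax (14.4%). The CRE letters TGACGTCA, the NRF1 palindrome and the TATA letters TATAAA were in 0 of 12 (2.23%, 1.33% and 12.6%). A single p53 half-site decamer was found in the Bax window and in no other of the 12 (7.37%). Whole p53 response elements were not searched for. Bax, Bbc3 and Pmaip1 are known targets of p53. Overlaps between different motifs were not removed, a match is a run of letters and not a bound site, and the windows hold only the bases near a start.

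Other genes of the pathway were counted from 3 further lists. At gene ends, 21.1% of all protein-coding genes had a KO region and 34.6% a WT region. Of 17 other BCL2 family genes, 2 had a KO region within 1000 bp of a gene end and 8 a WT region, with 2 in both lists. Bid, the BH3-only protein cleaved by caspase 8, had 12 reads in KO and 18 in WT, with a fold of 6.25 in KO and 5.62 in WT. Bnip3, of the mitophagy receptors, had 14 reads in each list, with a fold of 6.05 in KO and 4.97 in WT. In WT only were Bnip3l (fold 7.57, 22 reads), a close relative of Bnip3, the anti-apoptotic genes Bcl2l2 (3.68, 9 reads) and Bcl2a1d (5.90, 13 reads), the BH3-only gene Bik (4.10, 10 reads), Bcl2l13 (5.37, 12 reads) and Bcl2l12 (5.52, 16 reads). The Bcl2l12 region is shared with the end of Irf3, and Bcl2a1d belongs to a set of near-identical copies, so that its reads may be split among them.

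The next list held caspase genes and other genes of cell death, among them Fas, Fadd and Casp8, which can act before the mitochondrial step. Of 19 genes of the apoptosome, the caspases and their inhibitors, 11 had a KO region and 12 a WT region, and all 11 were in both lists. Among those with the highest WT folds were Casp6 (6.85 in KO, 10.5 in WT), an executioner caspase, and Vdac2 (7.02 in KO, 10.2 in WT), a mitochondrial channel that binds BAK. The KO fold was the higher at Casp2, the only such gene of the 11 (8.59 in KO, 7.84 in WT), which was named after its values were seen and shares its region with an end of Tmem139. Birc3, an inhibitor of apoptosis, was in WT only, with a fold of 5.93 and 15 reads.

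Of 21 regulators of the 8 genes, 6 had a KO region and 7 a WT region, with 6 in both. The highest WT folds in both lists were at Tcf3 (4.80 in KO, 7.25 in WT), which encodes the E2A proteins, Fbxw7 (5.0 in KO, 7.10 in WT), a ubiquitin ligase subunit that targets MCL1, and Mdm2 (4.92 in KO, 5.94 in WT), the p53 ubiquitin ligase. The KO fold was the higher at Foxo3 (7.10 in KO, 5.88 in WT) and Rel (6.67 in KO, 5.11 in WT), transcription factor genes named after their values were seen. Stat5a was in WT only, with a fold of 5.84 and 17 reads. Beside the 59.4% of all genes with a WT gene-end region that also had a KO region, 2 of 8 other BCL2 family genes, 11 of 12 apoptosome and caspase genes and 6 of 7 regulators did so. The differences among these lists were not tested.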

How the data were processed

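ATAC-seq region lists of sorted DP thymocytes from KO and WT mice were used, 1 list per group, each made from 2 replicates per the labels. Per the submitters' processing notes the build was mm10 and the tools included MACS2 2.1.4, deepTools 3.4.1, Picard, GATK, Bowtie2, Trim Galore and FastQC. Their order and settings, such as the shift for the transposase cut and duplicate removal, are not given in the sources used here.

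The authors' deposited lists give, per region, a fold enrichment (a linear ratio at the summit), the -log10 of p and of q, and a score equal to the whole part of 10 times the -log10 q. The deposited distance to the summit gave its position. Fold enrichment was used only to describe and rank regions. Summit lists repeated these values and were not used.

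Summit reads and local background were solved from fold, (reads + 1) / (background + 1), and the Poisson p, with a fit within 0.01 on 7642 of 7645 lines in KO and 15212 of 15215 in WT (the others have no count). Local backgrounds were multiples of 0.02 (within 0.1 of a step on 99.96% of KO and 99.98% of WT lines above genome background), read as 200 bp fragments in a 10 kb window, so background divided by 0.02 gives reads in 10 kb. The most frequent background served as relative depth. Sequencing totals were not used here, so the precision rests on summit reads, with medians of 15 in KO and 18 in WT. On 966 simulated summits the solver recovered all 966 counts.

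Overlap meant at least 1 bp. A like background was within 10% of a region's own, or 5% of its depth-scaled value in the other list. Gene positions and promoter sequences came from RefSeq tables of GRCm38.p6, with 12 promoter windows for 7 of the 8 genes. Neither exons nor introns were set apart. The 8 genes, the related lists and the motifs were chosen with earlier results of these data known. Genes named from the related lists were those called in 1 list only and the 3 called in both with the highest WT fold, of which 1 is not reported here. RefSeq starts in place of gene ends, single counterparts, and the p53 half-site were chosen after the data were seen. The work used scipy 1.17.1, pandas 2.3.3, numpy 2.4.6, matplotlib 3.10.9 and Python 3.11.15.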

Additional observations from a re-analysis of the deposited data

How the results depend on the processing

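Of 58 values recomputed for 12 results under other settings, 41 stayed close to the reported value (within its interval, or within 1.5 times for a count) and 17 did not. Reversals of direction were not assessed. Genes with a region within 1000 bp of a gene end numbered 1 in KO, 3 in WT and 1 in both. With a -log10 q of at least 5 or at least 10 the KO count and the count in both lists were 0, as the Bcl2 start had a KO -log10 q of 2.93. With 2000 bp they were 4 in KO, 5 in WT and 4 in both, and RefSeq starts (Pmaip1 by its gene end) also gave 4, 5 and 4, with Bcl2l1 in place of Bax. With a -log10 q of at least 10, KO regions with a WT region were 100%, 4 of 4. In the same setting apoptosome and caspase genes had 2 in KO, other BCL2 family genes 0 in KO and 1 in WT, and regulators 1 in KO and 3 in WT. Regulators had 2 in KO at a -log10 q of at least 5. The KO share of summit reads and the share of WT regions with a KO region stayed within their intervals under every setting tried. No paired analysis was possible because the lists pool the replicates, and for the same reason no replicate could be left out.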
